A study of Mus musculus with 6 samples.

Results

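The collagen genes of the mouse liver were compared between livers of 2 genotypes, LiK and LiKM. Members were the rows of a gene count table whose symbol has the form of a collagen chain (Col, a type number, a and a chain number) and that held at least 10 counts summed over 6 mice. There were 43 such rows among 26608 genes, and 36 reached the count minimum: 9 fibrillar collagens, 8 basement membrane collagens and 19 other collagens. The rule used no difference between the genotypes. The libraries came from whole liver of 3 LiK and 3 LiKM mice aged 6 weeks, with no treatment named in the labels. The labels give the genotypes by these names alone and name neither strain, sex, alleles nor Cre driver. From the published work on these mice, rather than the labels, hepatocytes of LiKM mice lack Mdm2, the ubiquitin ligase that holds p53 at a low level. The comparison shows what differs between LiKM and LiK, and no other genotype is analysed here.

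Collagens are secreted proteins of the extracellular matrix in which 3 chains wind into a triple helix. Fibrillar collagens (types I, III and V among them) form the cable-like fibrils that accumulate in liver scars, where hepatic stellate cells and portal fibroblasts are their main makers. Type IV collagen forms the sheet of basement membranes, and types XV and XVIII lie at basement membranes and can release fragments such as endostatin. Type VI forms beaded filaments around cells, while types XII, XIV and XVI attach to the surface of fibrils.

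The libraries held between 19909993 and 24874343 counts, of which 34679 to 44972 fell on collagen genes. Levels below are CPM, counts scaled to library size, after a TMM correction for differences in library composition. Mdm2 lay at 28.7, 29.0 and 28.6 CPM in LiK 1, LiK 2 and LiK 3 and at 122, 125 and 60.5 CPM in LiKM 1, LiKM 2 and LiKM 3, and edgeR called it higher in LiKM (log2 fold change 1.83, SE 0.27, adjusted p = 0.0196). A count over the whole gene does not test for a deletion within it. Hepatocyte markers were abundant in every library, with albumin (Alb) between 80638 and 103215 CPM, and the adipocyte gene Adipoq had 0 counts throughout. Within each genotype no pair of libraries was a copy, since the chi-square per gene was at least 27.6 in every pair. The titles give each mouse its own code, and nothing further is said of litters or cages.

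Some chains of types I, III, V and VI collagen were called higher in LiKM, and most collagens were not called. Of the 36 members, 28 passed the expression filter and were tested. A call means an adjusted p under 0.05 (Benjamini-Hochberg, over all genes) from the quasi-likelihood test of edgeR. Called higher were 6 collagens, or 21.4% of those tested, where 5.11% of the 13537 genes tested were called higher and 5.92% in either direction. They were Col1a1, Col3a1, Col5a2, Col6a1, Col6a2 and Col6a3, with fitted rises between 0.94 and 1.57 on the log2 scale. None was called lower by edgeR, against 0.813% of all genes, although 2 collagens with a negative change had an unadjusted p under 0.05, and DESeq2 and limma-voom called 1 and 0 lower. Over all genes tested, 22.4% had an unadjusted p under 0.05 in either direction. DESeq2 called 11.8% of all genes tested and limma-voom 9.77%, also in either direction. Positive log2 fold changes were found in 20 of the 28 (71.4%), and in 49.5% of all genes tested. The median log2 fold change was 0.65 over the tested collagens and 0.00 over all genes tested, and it was 0.56 in a fit without the filter that held all 36. Of the 28, 27 had a mean count of at least 10 in both genotypes, and the exception was Col6a5. In bulk tissue, a change in the number of cells that make a transcript and a change in the amount per cell cannot be told apart.

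The calls depended on the set of mice, for collagens and for all genes alike. Without LiK 1, LiK 2 or LiKM 2, 0 collagens were called higher, without LiKM 1 only Col6a3 was, and without LiK 3 or LiKM 3 the number was 9 or 8. In the same fits the share of all genes called in either direction was 0.224%, 0.137% and 0.343% with LiK 1, LiK 2 or LiKM 2 left out, 2.74% with LiKM 1 left out, and 2.25% and 4.57% with LiK 3 or LiKM 3 left out. Over the 6 omissions the fold changes of the 6 genes stayed positive, between 0.83 and 2.00 on the log2 scale. In edgeR's test against a change of 1.5-fold, 0 collagens passed.

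**Figure D1:**
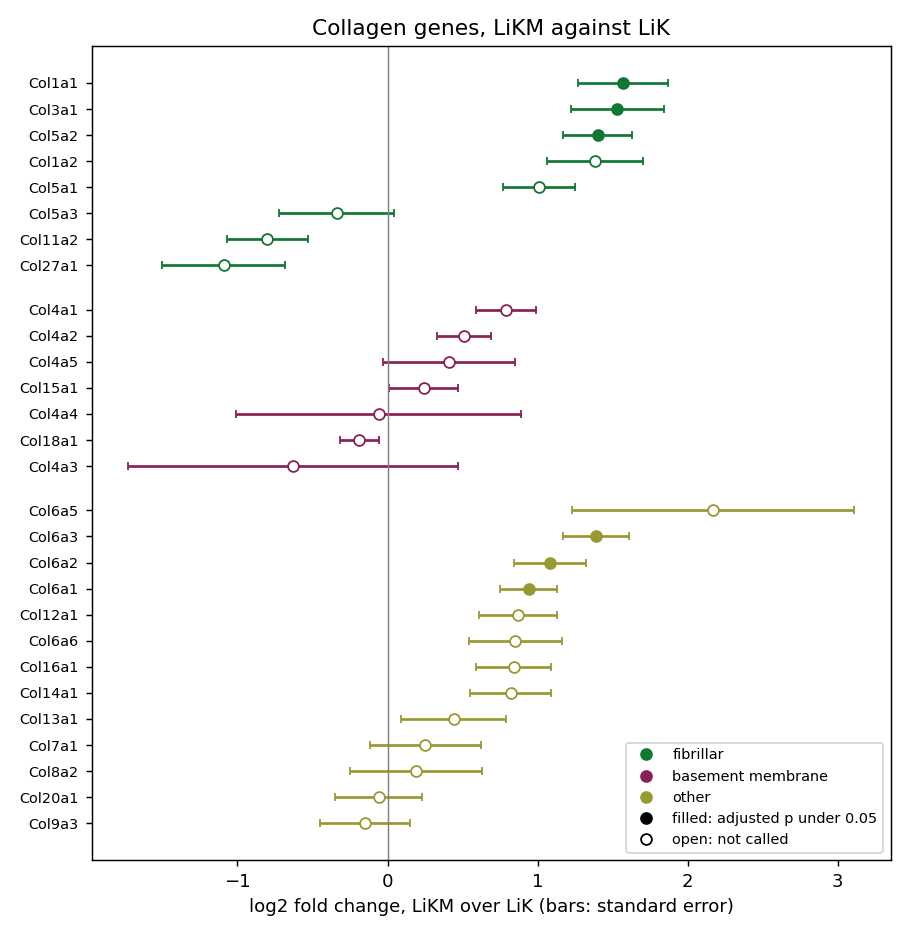
Log2 fold change of each tested collagen (horizontal axis, LiKM over LiK, bars show the standard error), with genes grouped as fibrillar, basement membrane and other from top to bottom. Filled points mark the 6 genes called at an adjusted p under 0.05, and the vertical line marks no change.

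The fibrillar collagens divided into a set that was higher in LiKM and a set that was not. Of 8 tested, 3 were called higher (Col1a1, Col3a1 and Col5a2), 0 lower and 5 were not called, with a median log2 fold change of 1.20. By unadjusted p under 0.05, 5 lay higher and 2 lower. No RefSeq window was available for Col1a1 or Col5a2. Shown here are the promoter windows of Col3a1, which was called, and of Col1a2, the uncalled partner chain of Col1a1. They are the 250 bases before the start in RefSeq on GRCm38.p6, 5′ to 3′, at chr1:45311288-45311537 and chr6:4505368-4505617, both on the plus strand. Capitals mark exact matches, on either strand, to the CCAAT box, to the TATA box word TATAAA or to the GC box word GGGCGG.
Col3a1: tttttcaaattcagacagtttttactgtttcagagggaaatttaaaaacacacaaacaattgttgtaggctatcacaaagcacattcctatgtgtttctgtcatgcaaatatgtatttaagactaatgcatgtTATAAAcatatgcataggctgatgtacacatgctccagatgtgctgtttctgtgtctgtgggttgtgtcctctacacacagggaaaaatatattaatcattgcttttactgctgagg
Col1a2: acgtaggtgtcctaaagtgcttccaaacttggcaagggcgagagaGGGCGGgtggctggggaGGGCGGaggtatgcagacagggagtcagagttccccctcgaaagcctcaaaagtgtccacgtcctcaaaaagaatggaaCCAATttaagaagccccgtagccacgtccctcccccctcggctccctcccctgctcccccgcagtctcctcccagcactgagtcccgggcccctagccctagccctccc

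Col3a1, the type III chain of reticular fibres, had the highest CPM of the fibrillar collagens in LiKM, while Col27a1 and Col5a3 lay above it in LiK on average. It was at 39.7, 42.5 and 85.6 CPM in the LiK mice and at 195, 151 and 139 CPM in the LiKM mice. The groups did not overlap, and LiK 3 stood between the other LiK libraries and LiKM. Col3a1 rose by 1.53 (SE 0.31) on the log2 scale, with an edgeR adjusted p of 0.0377.

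Col1a1 encodes the α1 chain of type I collagen, the main protein of fibrous scar. Its level was 11.4, 13.7 and 25.6 CPM in LiK and 51.1, 57.7 and 42.0 CPM in LiKM, again without overlap and with LiK 3 the highest LiK library. It rose by 1.57 (SE 0.30) on the log2 scale, with an edgeR adjusted p of 0.0334. Col1a2, which encodes the α2 chain of the same trimer, was at 13.9, 17.5 and 29.6 CPM in LiK and 59.3, 63.3 and 36.8 CPM in LiKM. Its log2 fold change of 1.38 (SE 0.32) missed the threshold in edgeR (adjusted p = 0.0511), and it passed without LiK 3 (0.0412), without LiKM 3 (0.0361) and in DESeq2 (0.000799). Per base of merged exon, Col1a1 lay above Col1a2 by a ratio of 1.56 ± 0.0754 over the LiK mice and 1.84 ± 0.283 over the LiKM mice (SD, n = 3 each), with LiKM 3 at 2.16 and the other LiKM libraries at 1.63 and 1.73. The ratio of Col3a1 to Col1a1 per base was 2.21 ± 0.131 and 2.17 ± 0.402 in the same order, so the genotype means differed by less than the spread between mice.

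Type V collagen chains sit inside type I fibrils and set their diameter. Col5a2 was at 5.06, 5.64 and 8.49 CPM in LiK and 19.5, 17.1 and 14.3 CPM in LiKM, and it rose by 1.40 (SE 0.23) on the log2 scale with an edgeR adjusted p of 0.0230. In the GENCODE annotation of GRCm38, Col5a2 and Col3a1 are neighbours that face each other tail to tail, and both were called. Col5a1 averaged 11.1 ± 3.77 CPM over the LiK mice and 22.5 ± 2.82 CPM over the LiKM mice, and edgeR did not call its log2 fold change of 1.01 (SE 0.24, adjusted p = 0.0560).

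Col5a3, the remaining type V chain, did not follow the other two chains. It was at 48.5, 65.1 and 67.8 CPM in LiK and at 30.6, 31.7 and 80.8 CPM in LiKM, so LiKM 3 lay above all LiK libraries and LiKM 1 and LiKM 2 below them. Its log2 fold change was −0.34 (SE 0.38, edgeR adjusted p = 0.635), and without LiKM 3 it was −0.97 and called lower (adjusted p = 0.0299). In LiK, Col5a3 was more abundant than Col5a1 per kilobase of merged exon (8.88 and 1.31 CPM per kb).

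Col27a1, a fibrillar collagen of cartilage, had the most negative fold change of the tested collagens. Its level was 63.4, 135 and 65.6 CPM in LiK and 31.6, 65.0 and 27.6 CPM in LiKM. The groups overlapped, since LiKM 2 lay within the LiK range, and LiK 2 was far above the other libraries. With a log2 fold change of −1.09 (SE 0.41) it missed the threshold in edgeR (adjusted p = 0.180) and passed in DESeq2 (adjusted p = 0.0495), and the change was −0.64 without LiK 2. Col11a2, a type XI chain, was scarcer and averaged 3.38 ± 0.912 CPM over the LiK mice against 1.93 ± 0.238 CPM over the LiKM mice. All its LiKM libraries lay below the LiK libraries, with a log2 fold change of −0.80 (SE 0.27) and an edgeR adjusted p of 0.140.

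**Figure D2:**
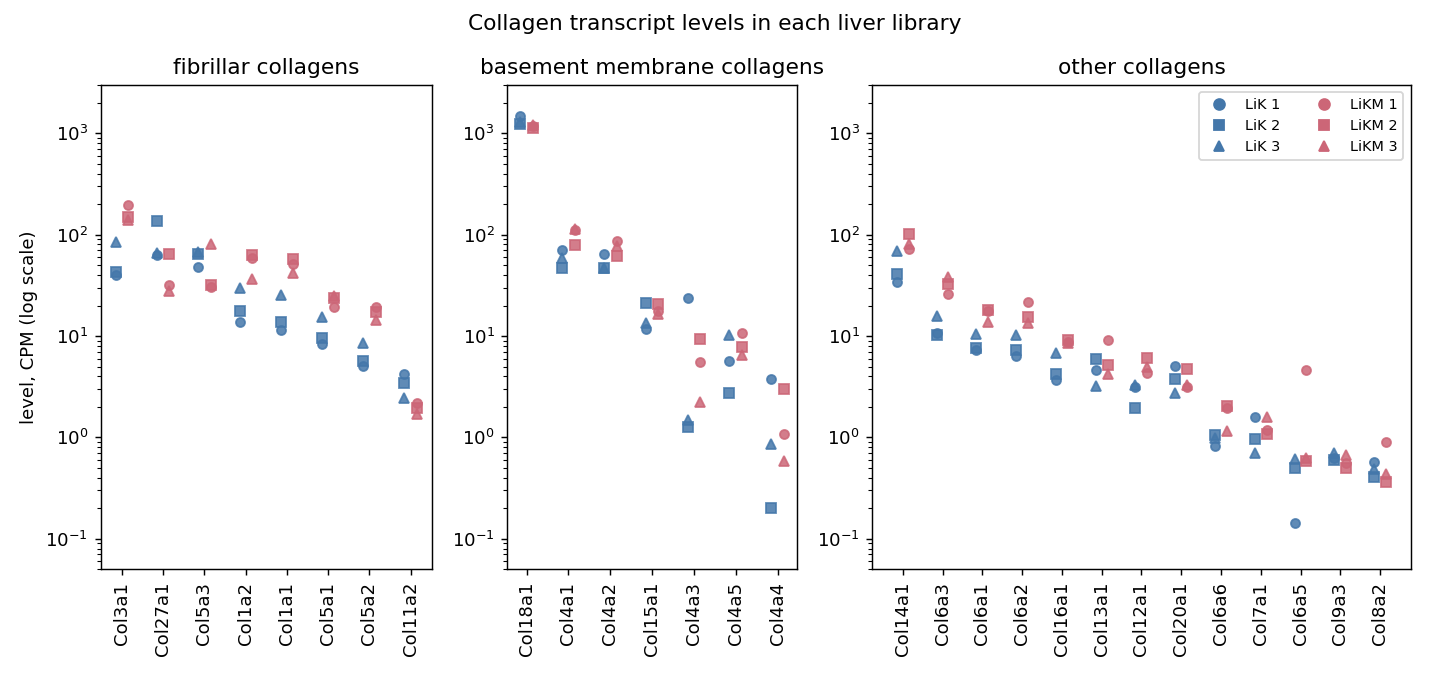
Level of each tested collagen in each library (vertical axis, CPM on a log scale), in 3 panels for fibrillar, basement membrane and other collagens. Colour gives the genotype and marker shape the mouse. Col18a1 lies far above all other collagens in every library, and the LiKM points of Col1a1, Col3a1 and Col5a2 lie above all LiK points.

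Basement membrane collagens held no call. Of 7 tested, 4 had a positive and 3 a negative log2 fold change, with a median of 0.24. In edgeR 0 were called, 2 had an unadjusted p under 0.05, and DESeq2 and limma-voom each called 1, Col4a1. The chains Col4a1 and Col4a2, which together make the type IV network found in nearly all basement membranes, are head-to-head neighbours in the annotation. Col4a1 was at 71.1, 46.9 and 58.8 CPM in LiK and 112, 79.3 and 115 CPM in LiKM, without overlap. Its log2 fold change was 0.79 (SE 0.20, edgeR adjusted p = 0.0649). Col4a2 was at 64.6, 46.7 and 47.1 CPM in LiK and 85.8, 61.7 and 77.4 CPM in LiKM, where LiKM 2 fell below LiK 1, and its log2 fold change was 0.51 (SE 0.18, edgeR adjusted p = 0.151). Per base, the ratio of Col4a1 to Col4a2 was 0.991 ± 0.109 over the LiK mice and 1.20 ± 0.0956 over the LiKM mice (SD, n = 3 each).

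The chains Col4a3 and Col4a4, which the kidney glomerulus uses in its filter, varied more between mice than between genotypes. Col4a3 was at 23.9 CPM in LiK 1 and at 1.26 and 1.48 CPM in LiK 2 and LiK 3, and at 5.59, 9.39 and 2.22 CPM in LiKM. Col4a4 was likewise highest in LiK 1, at 3.80 CPM, with 0.201 and 0.862 CPM in the other LiK mice and 1.08, 2.99 and 0.579 CPM in LiKM. Across the 6 libraries, LiK 1 came first and LiKM 2 next for both genes, which are head-to-head neighbours in the annotation. The log2 fold change of Col4a3 was −0.63 (SE 1.10, edgeR adjusted p = 0.774), and it was 2.06 without LiK 1 (edgeR adjusted p = 0.177). With all libraries kept it was also positive in limma-voom (1.19) and with the replicate number as a block (0.29). Its direction thus depended on that library and on the model. The remaining type IV chain tested, Col4a5, had means of 6.23 ± 3.82 and 8.34 ± 2.08 CPM.

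Col18a1, the type XVIII chain and a known product of hepatocytes, was by far the most abundant collagen in both genotypes. It took 72.5% ± 3.49 of the collagen total in the LiK mice, against 59.6% ± 1.73 in the LiKM mice (SD, n = 3 each). Its level was 1474, 1247 and 1285 CPM in LiK and 1171, 1119 and 1216 CPM in LiKM, and every LiKM library lay below every LiK library, as in 11.8% of all genes tested. Its log2 fold change was −0.19 (SE 0.13, edgeR adjusted p = 0.429). With library totals in place of TMM the change was −0.03 (edgeR adjusted p = 0.913). As a share of raw counts Col18a1 overlapped between the genotypes, so its separation depended on the scaling. Per kilobase Col18a1 stood at 190.2 CPM in LiK, and the next collagens by that measure, Col5a3, Col4a2 and Col4a1, at 8.88, 7.98 and 7.90. Col15a1, its multiplexin relative found around vessels, was at 11.8, 21.2 and 13.4 CPM in LiK and 17.8, 20.6 and 16.4 CPM in LiKM, and overlapped between the genotypes (log2 fold change 0.24, SE 0.23).

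Among the other collagens, the 3 main type VI chains were called higher. Of 13 tested, 3 were called higher and 0 lower, the median log2 fold change was 0.84, and 11 of the 13 were positive. The upstream windows of Col6a3 and Col6a1 are given to set them beside those of the fibrillar genes. They are again the 250 bases before the RefSeq start on GRCm38.p6, at chr1:90843972-90844221 and chr10:76726045-76726294, both on the minus strand and printed 5′ to 3′ along the gene.
Col6a3: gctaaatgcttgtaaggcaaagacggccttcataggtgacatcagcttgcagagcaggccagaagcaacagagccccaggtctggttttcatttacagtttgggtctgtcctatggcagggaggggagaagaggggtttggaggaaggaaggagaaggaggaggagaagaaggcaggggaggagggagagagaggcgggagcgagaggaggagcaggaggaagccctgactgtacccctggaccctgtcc
Col6a1: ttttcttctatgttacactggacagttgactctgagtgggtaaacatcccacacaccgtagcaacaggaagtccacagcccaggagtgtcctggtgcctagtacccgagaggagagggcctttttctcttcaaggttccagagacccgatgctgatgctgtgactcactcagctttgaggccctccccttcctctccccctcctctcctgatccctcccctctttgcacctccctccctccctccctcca

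Neither of these type VI windows held any of these words, unlike those of Col1a2, with a CCAAT 109 bases before the start and 2 copies of GGGCGG, and Col3a1, with a TATAAA 117 bases before it. This was not a trait of type VI chains. The windows of Col6a2, which was also called, held 3 copies and 1 copy of GGGCGG, and those of Col6a5 and Col6a6 held 1 and 2. Of the 36 members, 29 had a window in the RefSeq table. Among these 29 genes the CCAAT box was found in 34.5%, the TATA word in 13.8% and the GC word in 62.1%, on either strand. In the 32851 windows of the same length over all genes the shares were 33.8%, 12.4% and 32.7%. Of the 6 called genes 4 had a window, and none of the words stood in all 4. Such matches describe the letters only. Col1a1 and Col5a2 were the called genes without a window.

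Type VI collagen is assembled from an α1, an α2 and a longer α3 chain. Col6a3, the usual α3 chain, was at 10.7, 10.2 and 15.9 CPM in LiK and 26.2, 32.8 and 37.8 CPM in LiKM. It rose by 1.39 (SE 0.22) on the log2 scale and had the smallest edgeR adjusted p of the collagens, 0.0213. Col6a1 was at 7.32, 7.65 and 10.5 CPM in LiK and 17.5, 18.0 and 13.6 CPM in LiKM, a rise of 0.94 (SE 0.19) on the log2 scale with an edgeR adjusted p of 0.0377. Col6a2, its neighbour on the same strand, was at 6.40, 7.30 and 10.2 CPM in LiK and 21.6, 15.5 and 13.5 CPM in LiKM. Col6a2 rose by 1.08 (SE 0.24) with an edgeR adjusted p of 0.0479, which became 0.0514 with DESeq2's median ratio scaling and 0.0529 without LiK 3. With the replicate number as a block, Col6a1 and Col6a2 were not called (edgeR adjusted p = 0.0657 and 0.0810). In all 3 chains the LiKM libraries lay above the LiK libraries, and LiK 3 was the highest LiK library. LiKM 3 was the highest LiKM library for Col6a3 and the lowest for Col6a1 and Col6a2.

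Col6a5, an alternative to the α3 chain, differed through a single mouse. It was at 0.144, 0.503 and 0.616 CPM in LiK and at 4.60, 0.590 and 0.627 CPM in LiKM. Its log2 fold change of 2.17 (SE 0.94, edgeR adjusted p = 0.229) was 0.48 without LiKM 1 (adjusted p = 0.664). Col6a6 averaged 0.953 ± 0.122 CPM over the LiK mice and 1.72 ± 0.492 CPM over the LiKM mice, and edgeR did not call it (adjusted p = 0.167).

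Of the fibril-associated collagens, Col12a1, Col14a1 and Col16a1 had all LiKM libraries above all LiK libraries. EdgeR called none of these 3, each with an unadjusted p under 0.05, and DESeq2 and limma-voom called all 3. Col14a1, which decorates fibrils in dense matrix, was the most abundant of them at 34.1, 40.9 and 69.3 CPM in LiK and 72.0, 102 and 81.1 CPM in LiKM. The libraries did not overlap, but LiK 3 lay just below LiKM 1, and the log2 fold change of 0.82 (SE 0.27) had an edgeR adjusted p of 0.133 (0.0481 in DESeq2 and 0.0394 in limma-voom). Without LiK 3 it was 1.18 and called (adjusted p = 0.0439). Col12a1, a relative of Col14a1, was at 3.13, 1.96 and 3.28 CPM in LiK and 4.28, 6.13 and 4.92 CPM in LiKM (log2 fold change 0.87, SE 0.26, edgeR adjusted p = 0.106, DESeq2 0.0441 and limma-voom 0.0468). Col16a1 had means of 4.91 ± 1.70 and 8.81 ± 0.354 CPM (log2 fold change 0.84, SE 0.25, edgeR adjusted p = 0.0972).

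The remaining tested members, Col13a1, Col20a1, Col7a1, Col9a3 and Col8a2, overlapped between the genotypes, with log2 fold changes between −0.15 and 0.44 and standard errors between 0.29 and 0.44. These 5 are a transmembrane collagen (Col13a1), fibril-associated chains (Col20a1 and Col9a3), the anchoring fibril chain (Col7a1) and a network-forming chain (Col8a2). Over all 28 tested collagens, the LiKM libraries lay all above the LiK libraries in 13 (46.4%) and all below in 2 (7.14%). These shares were 17.8% and 11.8% among all genes tested.

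The 8 members that did not pass the filter held between 16 and 85 counts each over the 6 mice. Col22a1, found at tissue junctions such as that of muscle and tendon, had 0 counts in all LiK libraries and 33, 50 and 2 counts in LiKM 1, LiKM 2 and LiKM 3. Against the limit that 3 counts over the LiK group allow (0.0461 CPM), the pooled LiKM level of 1.33 CPM was at least 28.8-fold higher, but LiKM 3 was near 0. This bound covers counting error only. Col4a6 had 33 counts in LiKM 1 and at most 9 in any other library. LiKM 1 was the highest of the 6 libraries in 4 of these 8 genes. Below the minimum of 10 counts were 7 further rows, among them the cartilage gene Col2a1 with 0 counts in every library.

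**Figure D3:**
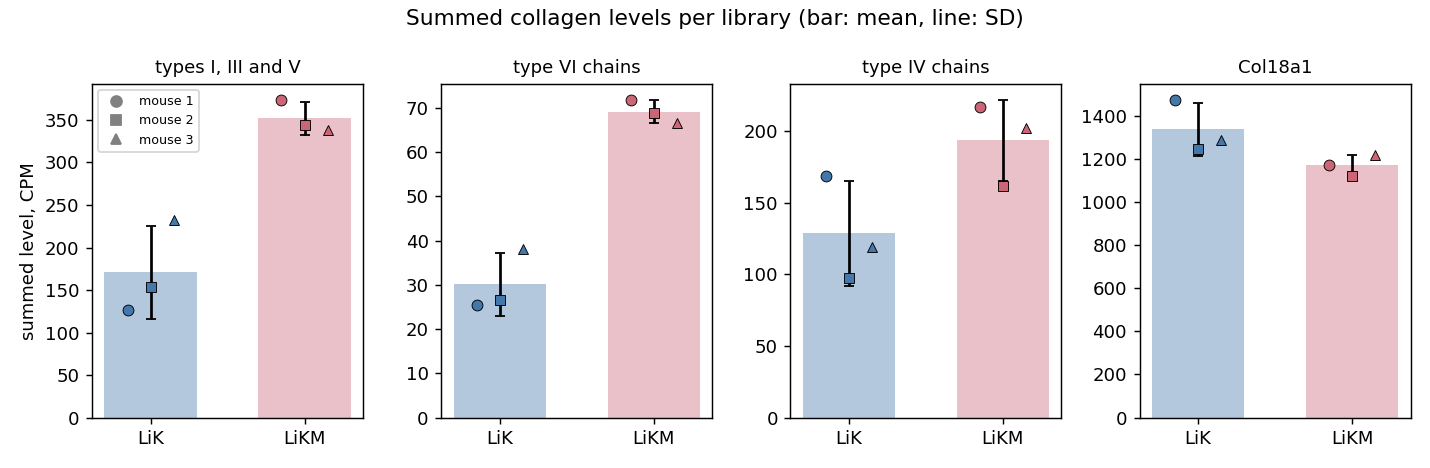
Summed level per library (vertical axis, CPM, starting at 0) of the 6 chains of types I, III and V, the 5 type VI chains, the 6 type IV chains and Col18a1. Bars show the mean and lines the SD over 3 mice of a genotype, and points show each mouse. LiKM libraries lie above LiK libraries for the types I, III and V and for type VI, overlap for type IV and lie below for Col18a1. CPM are TMM-scaled, and shares of raw counts overlapped for Col18a1.

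Summed levels by type lay higher on average in LiKM for types I, III and V, type VI and type IV. Col18a1 lay lower in TMM-scaled CPM, while its shares of raw counts overlapped. The types were not tested against each other. The chains of types I, III and V together lay at 127, 154 and 232 CPM in LiK and 374, 344 and 338 CPM in LiKM. The ratio of the genotype means was 2.06, and 2.51 without LiK 3. Type VI chains lay at 25.4, 26.7 and 38.2 CPM in LiK and 71.9, 68.9 and 66.7 CPM in LiKM, a ratio of 2.30 (2.66 without LiK 3). Type IV chains gave 169, 97.8 and 119 CPM in LiK and 217, 162 and 202 CPM in LiKM, with LiKM 2 below LiK 1 and means of 129 ± 36.7 and 193 ± 28.5 CPM (ratio 1.45 without LiK 3). Because Col18a1 dominated, the sum over all collagens differed little in TMM-scaled CPM, at 1840.2 ± 92.4 and 1960.3 ± 38.8 CPM (SD, n = 3 each). Without Col18a1, the sum was 505 ± 52.6 CPM for LiK and 791 ± 31.0 CPM for LiKM. As a share of raw counts, a different scale, all collagens made up 0.174% ± 0.00695 for LiK and 0.207% ± 0.00445 for LiKM, without overlap. On that scale collagens without Col18a1 made up 0.0479% ± 0.00688 for LiK and 0.0836% ± 0.00479 for LiKM. These sums have no p, since their members were chosen with results known, and longer chains weigh more in them.

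The 3 LiK mice were not alike. LiK 3 was the highest LiK library for 15 of the 28 tested collagens (53.6%, against 38.8% of all genes tested), including the 6 that were called. For those 6 genes its level was a median of 1.55 times the mean of LiK 1 and LiK 2, where the median over all genes was 1.01. The summed level of the 10 stellate cell markers was 178, 174 and 251 CPM in LiK and 290.2, 343 and 316 CPM in LiKM, with LiK 3 again the highest LiK library. Reln and Ecm1 made up most of this sum. All 10 had a positive log2 fold change with a median of 0.79, and edgeR called 0 of them, with 6 at an unadjusted p under 0.05, 3 called by DESeq2 and 1 by limma-voom. The part of stellate cell content in the collagen levels was not tested.

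**Figure D4:**
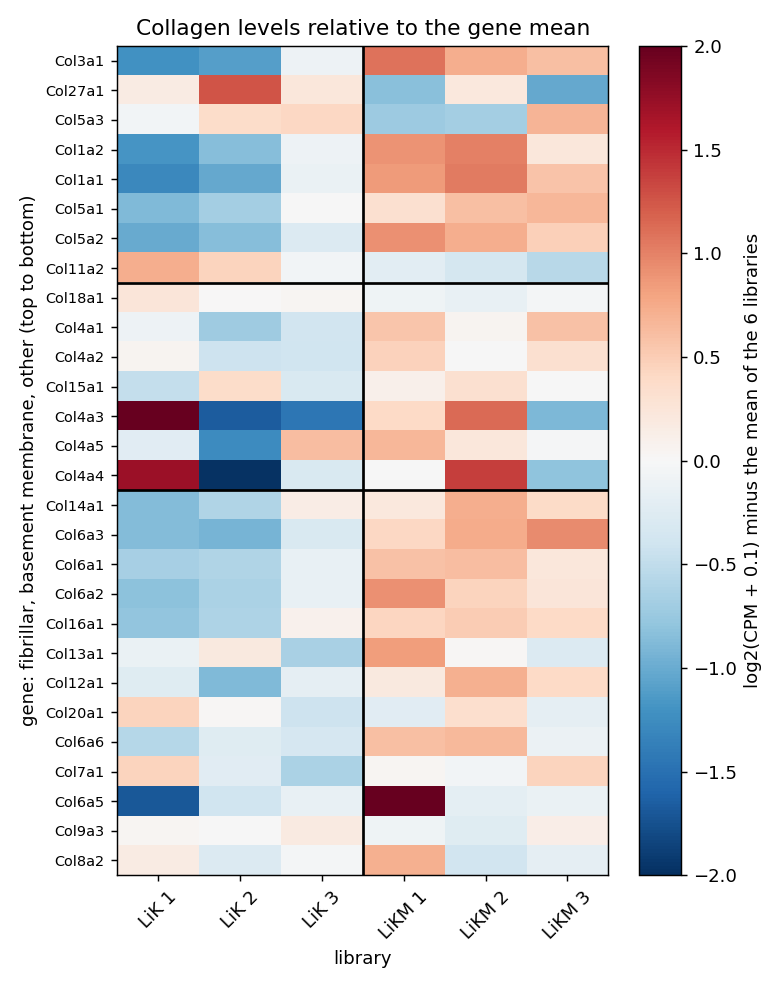
Level of each tested collagen in each library relative to that gene's mean over the 6 libraries (colour, log2 of CPM plus 0.1, limited to 2 in either direction). Rows run through fibrillar, basement membrane and other collagens and columns through the libraries, with black lines between groups. For the 6 called genes, LiK 1 and LiK 2 are lowest and LiK 3 lies between them and LiKM.

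Markers of other cells that could contribute collagen also differed between libraries. Beside the counts below, 22.4% of all genes tested had an unadjusted p under 0.05. DESeq2 called 11.8% of all genes tested and limma-voom 9.77%, each in either direction. Of 10 portal fibroblast markers 7 were tested, and 3 of these were called higher, Thy1, Dpt and Eln, with 6 higher at an unadjusted p under 0.05, 5 called by DESeq2 and 4 by limma-voom. The summed level of the 10 was 15.7, 10.9 and 18.4 CPM in LiK and 63.6, 31.9 and 45.4 CPM in LiKM. The 7 smooth muscle markers summed to between 15.3 and 19.5 CPM in LiK and to 80.0, 22.7 and 24.3 CPM in LiKM, so LiKM 1, the mouse with the highest Col6a5 and Col4a6, stood apart. Of these markers 4 were tested, edgeR called 0 with all 4 at an unadjusted p under 0.05, and DESeq2 and limma-voom called 0. Endothelial markers summed to between 188 and 215 CPM in LiK and between 187 and 285 CPM in LiKM, with 0 of 10 called by edgeR or DESeq2, 1 by limma-voom and 4 at an unadjusted p under 0.05 (3 higher and 1 lower). The 8 macrophage markers summed to 253 to 325 CPM in LiK and 355 to 497 CPM in LiKM, with 3 called higher (C1qa, Cd68 and Adgre1, listed as Emr1). All 8 were higher at an unadjusted p under 0.05, and DESeq2 called 5 and limma-voom 4. The 8 cholangiocyte markers overlapped in sum (82.7 to 254 CPM in LiK and 110.4 to 233 CPM in LiKM). Most of that sum was Spp1, at 56.3 to 225 CPM. Of the 7 tested, 6 had a positive log2 fold change with a list median of 1.12, and Krt19, Krt7, Epcam and Sox9 had all LiKM libraries above LiK. EdgeR called 0, with 4 higher at an unadjusted p under 0.05, 2 called higher by DESeq2 and 0 by limma-voom. The 6 mesothelial markers also overlapped (2.67 to 9.40 CPM in LiK and 4.70 to 9.26 CPM in LiKM), with 0 of 4 called by edgeR, DESeq2 or limma-voom and 0 at an unadjusted p under 0.05. Of 2 adipocyte markers tested edgeR called 0, with 1 lower at an unadjusted p under 0.05 and in DESeq2, and 0 in limma-voom. Of 10 hepatocyte markers 1 was called lower, Serpina1c. Only 2 of the 10 had a positive log2 fold change, and the list median was −0.38. At an unadjusted p under 0.05, 3 were lower and 0 higher, and DESeq2 called 2 lower and limma-voom 1. The part of these cells in the collagen levels was not tested.

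Other genes of the collagen pathway were taken from 5 lists of 73 genes, of which 60 were tested. Called higher were 11 (18.3%, against 5.11% of all genes) and lower 0, with 0 lower at an unadjusted p under 0.05 and 0 called lower by DESeq2 or limma-voom, and the median log2 fold change was 0.45. Without LiK 1, LiK 2, LiK 3, LiKM 1, LiKM 2 and LiKM 3, the number called higher was 1, 1, 5, 2, 1 and 6.

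The enzymes that fold and modify collagen inside the cell were mostly not called. Of 20 tested, 1 was called, and the list median was 0.18. This was Plod2, which hydroxylates lysines of the telopeptides for the cross-links typical of scar collagen. It was at 0.867, 0.805 and 1.31 CPM in LiK and 2.73, 4.72 and 2.94 CPM in LiKM, a rise of 1.78 (SE 0.33) on the log2 scale with an edgeR adjusted p of 0.0310. Serpinh1, the collagen chaperone HSP47, also had all LiKM libraries above LiK but was not called (log2 fold change 1.14, SE 0.31, edgeR adjusted p = 0.0789). P4hb, the abundant shared subunit of prolyl 4-hydroxylase, was between 912 and 1153 CPM in all libraries, and its log2 fold change was −0.07 (SE 0.14).

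Outside the cell, procollagen is trimmed before it forms fibrils. Of 7 genes tested for this step 2 were called higher. Adamts2, which removes the amino-terminal propeptide, was at 4.48, 3.93 and 7.02 CPM in LiK and 10.8 ± 0.735 CPM over the LiKM mice (log2 fold change 1.07, SE 0.23, edgeR adjusted p = 0.0443). Pcolce, which speeds removal of the carboxy-terminal propeptide, was at 7.37, 9.46 and 10.4 CPM in LiK and 14.6, 17.0 and 14.1 CPM in LiKM (log2 fold change 0.74, SE 0.17, edgeR adjusted p = 0.0479). Bmp1, the protease it enhances, overlapped between the genotypes at 133 to 202 CPM and was not called.

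Receptors for collagen held the most calls of the 5 lists, 5 of 9 tested. Ddr1, a receptor tyrosine kinase activated by collagen and found mainly on epithelial cells, was at 2.36, 2.01 and 2.30 CPM in LiK and 16.8, 10.4 and 13.5 CPM in LiKM (log2 fold change 2.60, SE 0.22, edgeR adjusted p = 0.00564). Its relative on mesenchymal cells, Ddr2, averaged 5.18 ± 1.07 CPM over the LiK mice and 11.2 ± 1.15 CPM over the LiKM mice and rose by 1.11 (SE 0.19). Adgrg1 (listed as Gpr56), an adhesion receptor that binds type III collagen, rose by 1.28 (SE 0.20), Mrc2, which takes up collagen for breakdown, by 1.34 (SE 0.22) and Lair1, an inhibitory receptor of immune cells, by 1.23 (SE 0.23) on the log2 scale. The integrin subunit genes Itga1 and Itgb1 overlapped between the genotypes and had log2 fold changes of 0.16 and 0.08.

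**Figure D5:**
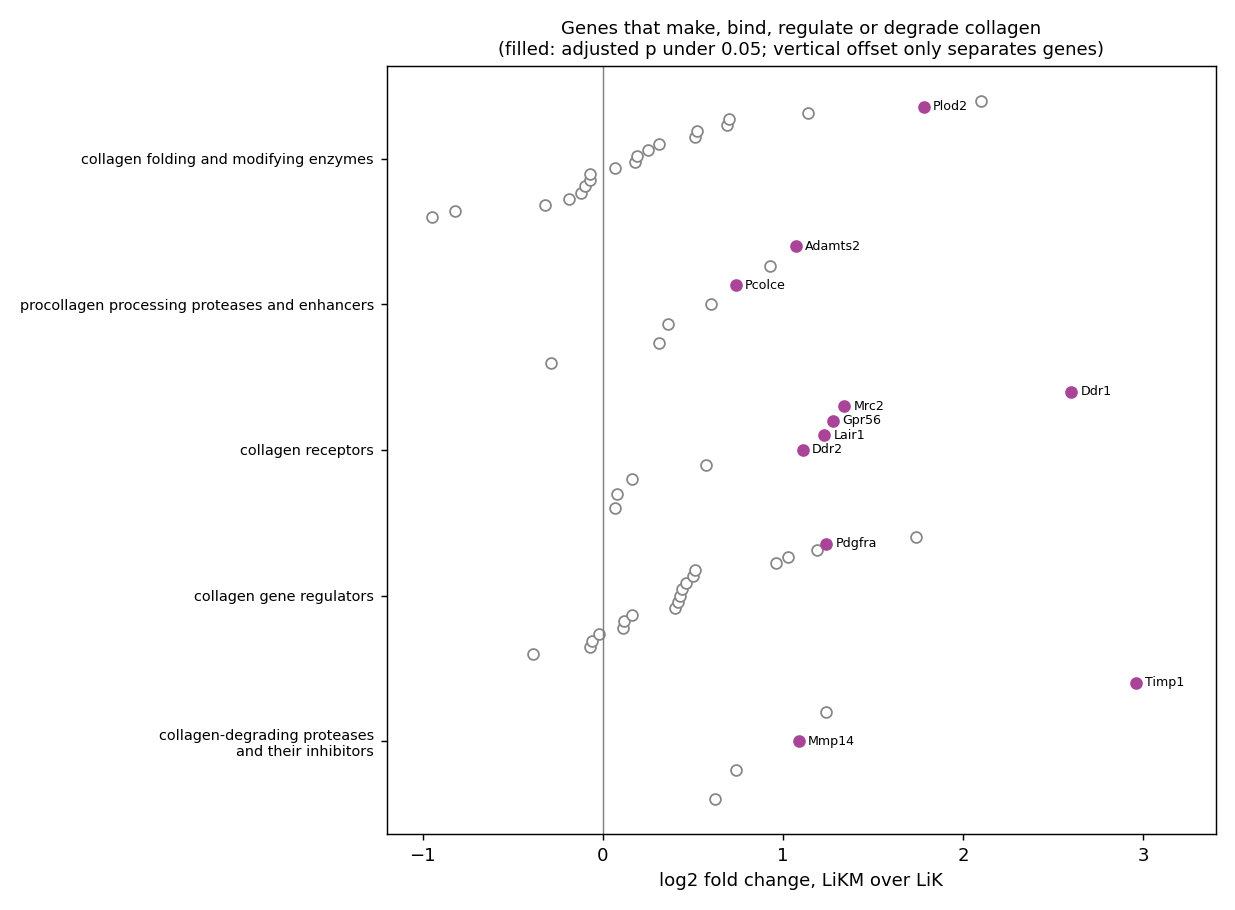
Log2 fold change (horizontal axis, LiKM over LiK) of the 60 tested genes of 5 lists of the collagen pathway. Filled and named points mark the 11 genes called at an adjusted p under 0.05, 5 of them collagen receptors.

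Of the 19 tested genes that regulate collagen production, 1 was called. This was Pdgfra, a growth factor receptor of fibroblasts and stellate cells, at 3.56, 3.57 and 5.79 CPM in LiK and 9.21, 8.94 and 12.4 CPM in LiKM (log2 fold change 1.24, SE 0.25, edgeR adjusted p = 0.0377). Tgfb1, the main profibrotic cytokine, lay at 5.44 to 7.76 CPM in LiK and 9.26 to 9.71 CPM in LiKM and was not called (log2 fold change 0.51, SE 0.17, edgeR adjusted p = 0.127). Ccn2 (listed as Ctgf), a target of that cytokine, overlapped and had a log2 fold change of −0.39 (SE 0.26).

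Of 5 tested genes of collagen breakdown and its inhibitors, 2 were called higher. Mmp14, a membrane-bound collagenase, was at 23.4, 26.7 and 27.0 CPM in LiK and 45.8, 57.4 and 61.5 CPM in LiKM, a rise of 1.09 (SE 0.14) with an edgeR adjusted p of 0.0146. Timp1, which inhibits such proteases, was scarce at 0.193, 0.201 and 0.0410 CPM in LiK, from 4, 4 and 1 counts, and 0.564, 0.998 and 1.83 CPM in LiKM, with a fitted log2 fold change of 2.96 (SE 0.66, edgeR adjusted p = 0.0467). It passed the expression filter only through its LiKM counts of 12, 22 and 38, so its call is no support for a difference, and without it 1 gene of this list and 10 of all pathway genes were called. The remaining call of this list, Mmp14, had the same direction as the called collagens, while Mmp2, Ctsk and Timp2 were not called.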

How the data were processed

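Liver RNA of 3 LiK and 3 LiKM mice was sequenced with a stranded messenger RNA kit, per the labels' protocols. Per the submitters' processing notes, FastQC 0.11.7 and featureCounts were used. The aligner, build, annotation and strand setting of the counting were not given in the sources used here. Raw counts for each gene symbol were deposited in 1 table, with 0 columns left unused. Genes were filtered with edgeR 4.0.16 (filterByExpr: a count of about 10 in 3 libraries and a total of at least 15), scaled by TMM and compared in R 4.3.3 with the quasi-likelihood test, genotype as the only term, with Benjamini-Hochberg adjustment over 13537 genes. The script was tested on simulated data. Standard errors were derived from the coefficient and its F statistic. DESeq2 1.42.0 and limma 3.58.1 were alternatives, beside other scalings and filters, a test against a 1.5-fold change, a replicate block and leaving out each library.

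Basement membrane collagens were type IV, XV and XVIII. Lengths are merged exons of GENCODE M21 (GRCm38), which may not be the annotation used for counting. By that annotation, no exon of the 6 called collagens overlapped another gene of the count table. On opposite strands, Col4a1 and Col4a2 shared 22 bases, Col9a3 and Tcfl5 shared 234, and Col5a1 and Gm13372 shared 113. Col7a1 and Mir711 shared 36 bases on the same strand. Promoters are from RefSeq. Older symbols were matched for 8 pathway genes. The members and lists were chosen with earlier results of these data known. Named with values in each library were the called collagens, the 4 most abundant of each group and the 2 uncalled ones with the largest change. Of each pathway list, up to 3 called genes were to be named. Col5a1, Col11a2, Col4a4, Col4a5, Col4a6, Col6a6, Col16a1, Col22a1, Serpinh1, P4hb, Bmp1, Lair1, Itga1, Itgb1, Tgfb1, Ccn2, Ddr2 and the other collagens and markers were chosen after their values were seen.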

Additional observations from a re-analysis of the deposited data

How the results depend on the processing

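The 6 called collagens kept their call with upper quartile scaling, library totals, DESeq2, limma-voom, no filter and a filter of 1 CPM in 3 libraries, and Col6a2 lost it with median ratio scaling. Collagens called higher numbered 10 with library totals, 12 with DESeq2, 12 with limma-voom and 0 in the test against a 1.5-fold change. For the fibrillar group these were 5, 5, 5 and 0, with 5 also without a filter. The basement membrane group had 2, 1 and 1 with the first 3 settings, and with type IV chains alone still 0. The other collagens had 6 with DESeq2, 6 with limma-voom and 0 against a 1.5-fold change. Pathway genes called higher were 17 with DESeq2 and 1 against a 1.5-fold change. All genes called higher or lower numbered 692 and 110, against 1039 and 63 with library totals, 1214 and 377 with DESeq2, 1063 and 260 with limma-voom, and 115 and 12 against a 1.5-fold change. With library totals the median over all genes moved to 0.16 and that of collagens to 0.81, a difference of 0.65 as before. The collagen median was 0.97 with limma-voom. Collagens as a share of all counts had a ratio of 1.19 (LiKM over LiK) on raw totals and of 1.07, 1.05 and 1.09 with TMM (added after seeing the data), median ratio and upper quartile scaling.

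Leaving out 1 library gave 0 to 9 collagens called higher and 0 to 1 called lower, 0 to 5 fibrillar, 0 to 4 other, 0 basement membrane, 1 to 6 pathway genes higher, and 18 to 525 genes higher and 1 to 101 lower. The collagen median ranged from 0.43 to 0.93 and the share ratio from 1.17 to 1.21. Fewer mice were left in these fits.

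The titles number the mice 1 to 3 in each genotype, but deviations of same-numbered mice correlated at 0.27, 0 and 0.13, so the numbers were not taken as pairs, and LiK 2 did not correlate best with its own number. With the replicate number as a block, 7 collagens were called, 6 higher and 1 lower (Col27a1), with 1 in the basement membrane group and 1 among the others. Col6a1 and Col6a2 lost their calls and Col4a1 and Col5a1 gained one, and 166 genes were called lower. Col4a3 changed direction under the block (0.29), in limma-voom (1.19) and without LiK 1, its values over the omissions running from −1.21 to 2.06. The cause of these changes was not tested. Of 254 values of 17 collagens under other settings, 199 kept direction and side of the threshold, 19 newly passed it, 33 no longer did and 3 changed direction. Depth limits the scarce members: the 8 untested ones held at most 85 counts each.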
